A study of Mus musculus with 36 samples.

Results

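Wounds of the PD arm taken 12 days after injury were set against wounds of the same arm taken 2 days after injury, by RNA sequencing of mouse skin. The libraries were chosen by the arm and day in their labels, with no measured value in the choice, and they made up 11 of the 36 libraries of the series, 6 at day 12 and 5 at day 2. The labels name the arms P and PD and give neither the meaning of the letters nor the genotype, agent, strain, age or sex of any group. The series title concerns removal of senescent cells with high p21, the cell cycle inhibitor encoded by Cdkn1a, and the healing of wounds. The other groups were PD wounds at day 4 (6 libraries), P wounds at day 2 (5), day 4 (5) and day 12 (6), and unwounded skin (3). The labels do not tie libraries to animals, so p-values measure only the spread between these samples, which may be technical.

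After injury, skin passes through an inflammatory phase, in which neutrophils and then monocytes enter the wound, and a later phase in which the epidermis closes over and fibroblasts lay down collagen. Hair follicles alternate between rest and growth. A growing follicle builds the hair shaft, and the inner root sheath around it, from dividing matrix cells under Wnt and hedgehog signals, while its melanocytes make pigment.

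Library totals ran from 16.1 to 35.7 M counts at day 12 (median 30.05 M) and from 30.2 to 44.6 M counts at day 2 (median 34.5 M). Levels are counts per M after scaling by the trimmed mean of M-values (CPM), and they compare libraries, not genes of different length. A gene was called where the quasi-likelihood test of edgeR gave a Benjamini-Hochberg adjusted p under 0.05 over all 20657 genes tested. By this rule 7701 genes (37.3%) differed, 3848 higher at day 12 (18.6%) and 3853 lower (18.7%). Among them 2138 were more than 2-fold higher (10.4% of genes tested) and 1942 more than 2-fold lower (9.4%). The levels of the day 12 and day 2 libraries did not overlap for 4146 genes (20.1%), and 4047 of them were also called (19.6%). The median log2 difference of all genes tested was 0.01. Counts of list members below are read against these shares.

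Some libraries stood apart from the rest of their group. Day 12 replicate 2 held 664 CPM summed over 16 neutrophil genes, where the other 5 day 12 libraries held 41.9 to 104 CPM, and its sum over 16 adult skeletal muscle genes was the lowest of the group, 6530 CPM. Day 12 replicate 5 held 9.95 CPM over 15 keratin-associated protein genes of hair, against 720 to 4810 CPM in the other day 12 libraries. Day 2 replicates 4 and 5 held 1550 and 1090 CPM over 14 adipocyte genes, against 4770, 8040 and 5440 CPM in day 2 replicates 1 to 3, and they were also the lowest of the group for mast cell, collagen, endothelial and Schwann cell genes. Day 2 replicate 3 held 0.158% of its counts in globin genes, where no other day 2 library exceeded 0.0168%. Mitochondrial transcripts made up 1.77 to 4.97% of counts at day 12 and 3.33 to 5.68% at day 2. The labelled tissue was borne out by Krt5, the keratin of the basal epidermis, at 1480 to 6310 CPM at day 12 and 3810 to 6630 CPM at day 2.

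**Figure D1:**
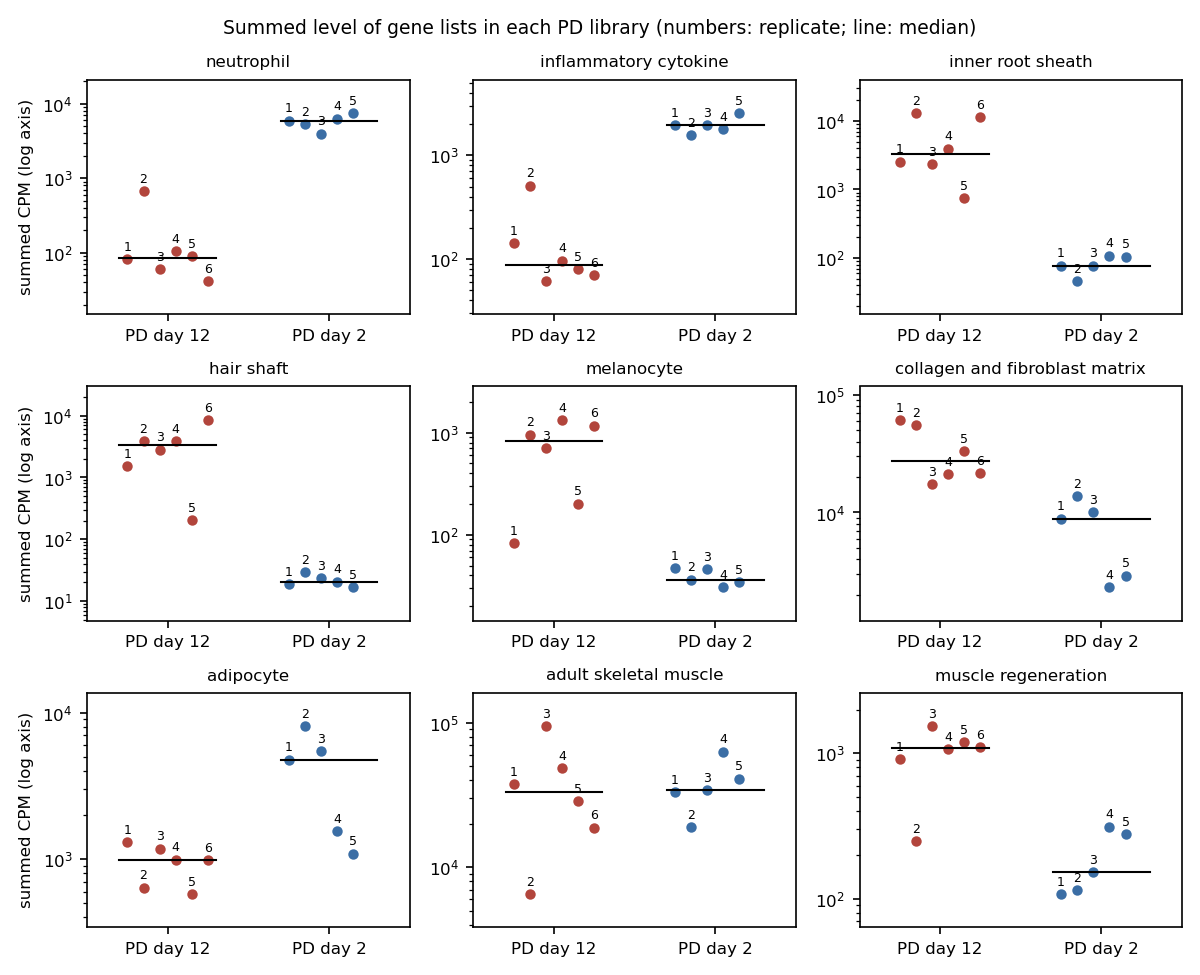
Summed CPM of 9 gene lists (log axis) in each PD library, day 12 in red on the left and day 2 in blue on the right, numbered by replicate, with a line at the group median. Neutrophil and cytokine sums lie lower at day 12 in every library, with replicate 2 the highest of its group at 664 and 511 CPM, while hair, melanocyte and collagen sums lie higher, and adult skeletal muscle sums overlap.

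The members of 41 gene lists of skin, immune and stromal cells and of wound processes held 534 tested genes, of which 131 were higher at day 12 and 149 lower. The hair, pigment and collagen lists lay at the upper end and the neutrophil, chemokine and cytokine lists at the lower end.

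**Figure D2:**
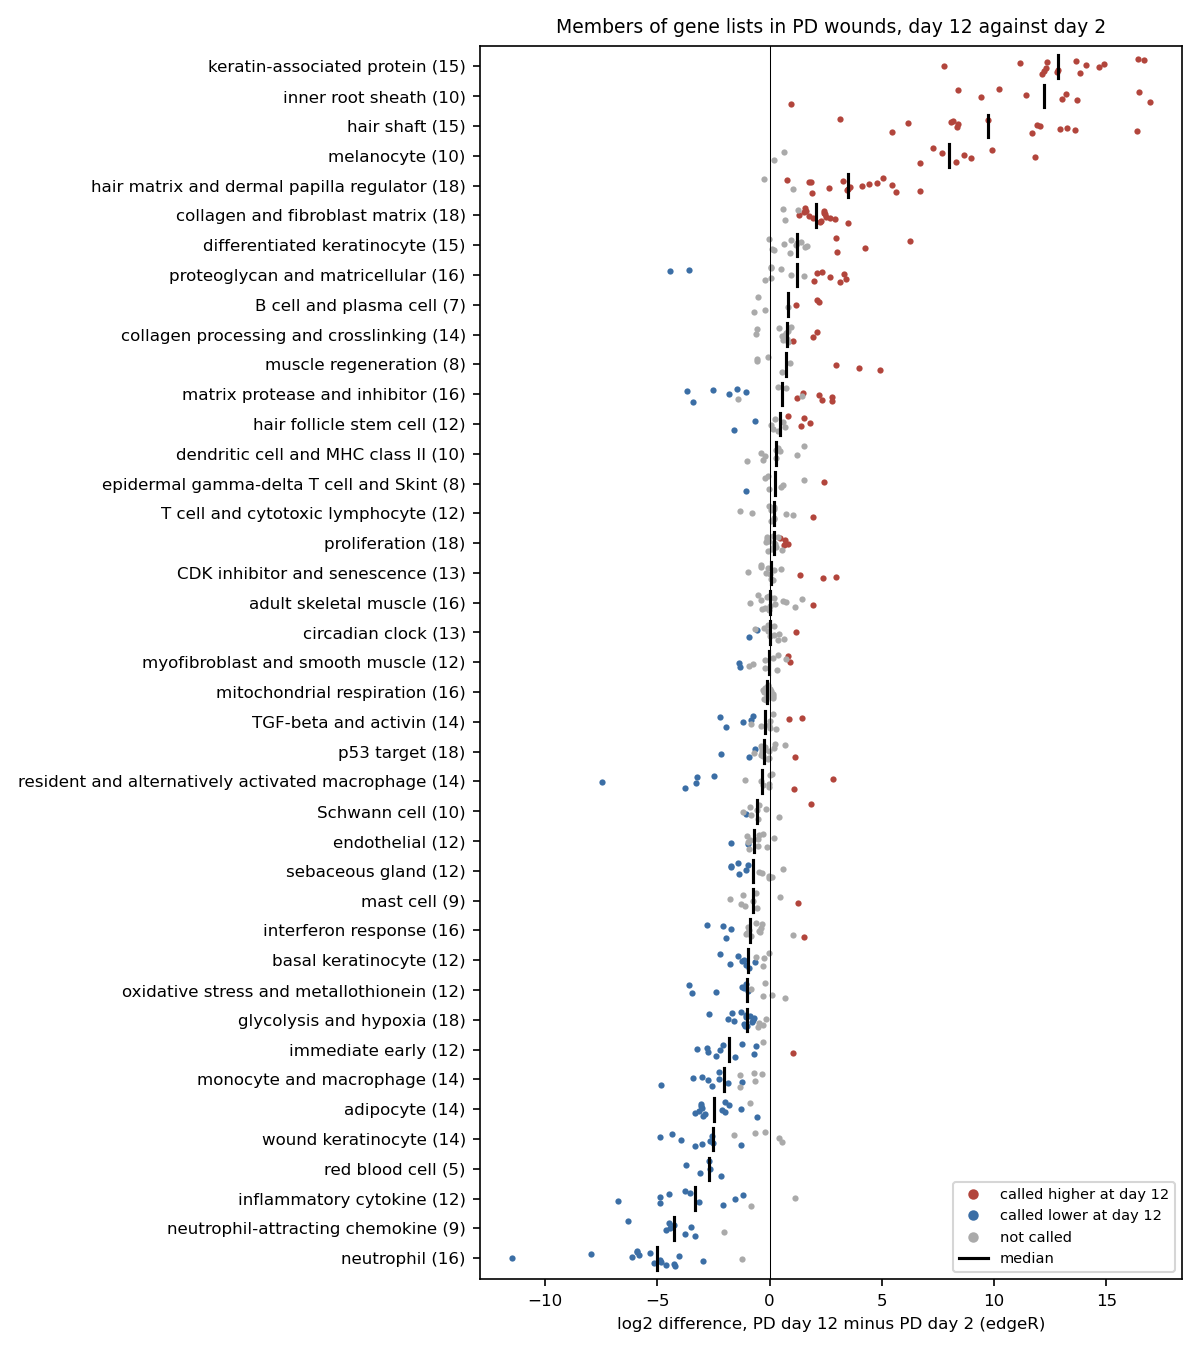
Log2 difference, PD day 12 minus PD day 2 (edgeR), of every tested member of 41 gene lists, with the number of members in brackets and a black bar at each median; red points were called higher, blue points called lower and grey points not called. List medians run from 12.83 for keratin-associated proteins to -5.03 for neutrophil genes; members with 0 counts in a group are drawn at their fitted value, which is no bound.

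Neutrophil genes had fallen far by day 12. Of 16 members 15 were lower and 0 higher, with a median log2 difference of -5.03, where 18.7% of all genes were lower. S100a9 (ENSMUSG00000056071, GRCm39 chromosome 3, 90599931 to 90603071, minus strand), whose product is the most abundant calcium-binding protein of neutrophils together with S100a8, held 0.78 to 172 CPM at day 12 (median 4.98) and 2050, 1850, 1170, 2190 and 2780 CPM at day 2. Every day 12 library lay below every day 2 library, and the highest of them, replicate 2, stood well above the rest. The difference was 59.6-fold (log2 -5.90, SE 1.17, edgeR, adjusted p = 0.000214).

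Ly6g, the surface antigen by which mouse neutrophils are sorted, had 0 counts in all 6 day 12 libraries, against 10.5, 12.1, 2.49, 17.2 and 15.5 CPM at day 2. Set against 3 counts over the group, it was at least 715-fold lower at day 12 (edgeR, adjusted p = 1.24e-07). Retnlg, a resistin-like gene of neutrophils, held 0.0591 to 6.46 CPM at day 12 (median 0.0985) and 416, 461, 103, 408 and 301 CPM at day 2. It fell 252-fold (log2 -7.98, SE 1.19, edgeR, adjusted p = 7.83e-06), with no overlap. Cxcr2, the receptor through which neutrophils follow chemokines, fell 35.9-fold (log2 -5.17, SE 0.99, edgeR, adjusted p = 0.000146), and the collagenase gene Mmp8, stored in neutrophil granules, fell 70.3-fold (log2 -6.13, SE 0.86, adjusted p = 2.86e-06). Lcn2, which encodes an iron-sequestering antibacterial protein that stressed keratinocytes also make, fell 29.7-fold to 2.24 to 12.2 CPM, against 170 to 274 CPM at day 2. Ltf, the lactoferrin gene, was the member not called (log2 -1.23, SE 0.88, edgeR, adjusted p = 0.291), at 0.0325 to 23.1 CPM at day 12 and 2.72 to 23.6 CPM at day 2. In bulk tissue, fewer cells of a type and less RNA per cell cannot be told apart.

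Factors that draw and raise neutrophils fell with them. Of 9 chemokines and colony-stimulating factors, 8 were lower and 0 higher (median log2 -4.26). Csf3 (ENSMUSG00000038067, GRCm39 chromosome 11, 98592089 to 98594458, plus strand), the cytokine that drives neutrophil production, was at 0 counts in 3 day 12 libraries and reached 12.8 CPM in replicate 2, against 64.7, 63.7, 31.8, 61.7 and 64 CPM at day 2. It fell 24.6-fold (log2 -4.62, SE 1.0, edgeR, adjusted p = 0.000539), without overlap. Cxcl5, a ligand of Cxcr2, held 0.065 to 16.1 CPM at day 12 (median 0.363) and 173, 73.1, 37.9, 19.7 and 39 CPM at day 2 (22.7-fold lower, log2 -4.50, SE 1.30, edgeR, adjusted p = 0.00692). Ppbp, the platelet-derived ligand of the same receptor, fell 78.5-fold (log2 -6.29, SE 1.0, adjusted p = 1.34e-05). Cxcl1 fell 21.6-fold (log2 -4.43, SE 0.90, edgeR, adjusted p = 0.000257) and Cxcl3 19.1-fold (log2 -4.26, SE 1.21, adjusted p = 0.00609). Csf2 was not called (log2 -2.04, SE 0.85, adjusted p = 0.0584) and stayed under 1 CPM in all 11 libraries. Replicate 2 carried the highest level of its group for this list, 751 CPM in sum against 1.76 to 39.8 CPM in the other day 12 libraries and 1240 to 2180 CPM at day 2.

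The promoters of Cxcl1 and Cxcl3 are shown because both genes fell together and both hold the same binding motif of NF-kB, the factor through which bacterial products and interleukin 1 act on these genes. They are RefSeq sequences of GRCm38.p6 from 250 bases before to 50 bases after the annotated start, Cxcl1 at chr5:90890995-90891294 and Cxcl3 at chr5:90785851-90786150, both on the plus strand. Capitals mark matches to GGGA, any 2 bases and TTCC on either strand, which in both promoters overlap on the 2 strands and begin 71 and 70 bases before the start in Cxcl1 and 73 and 72 bases before it in Cxcl3.
Cxcl1: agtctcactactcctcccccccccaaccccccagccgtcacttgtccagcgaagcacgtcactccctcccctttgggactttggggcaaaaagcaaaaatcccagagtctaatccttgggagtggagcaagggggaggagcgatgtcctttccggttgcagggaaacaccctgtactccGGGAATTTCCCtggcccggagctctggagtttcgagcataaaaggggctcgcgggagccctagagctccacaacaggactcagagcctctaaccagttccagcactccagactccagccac
Cxcl3: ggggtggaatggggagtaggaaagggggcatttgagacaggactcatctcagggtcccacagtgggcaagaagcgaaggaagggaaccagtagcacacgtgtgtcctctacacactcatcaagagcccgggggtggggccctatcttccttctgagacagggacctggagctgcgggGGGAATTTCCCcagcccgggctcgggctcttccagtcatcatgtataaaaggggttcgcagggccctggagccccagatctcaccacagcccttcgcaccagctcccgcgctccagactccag
Of 21 chemokine and cytokine genes tested, 15 had promoters in the table, 19 in all, and 4 of these (21.1%) held the motif, against 1.47% of all 32851 promoters of that length. The AP-1 motif TGANTCA was in 6 of the 19 (31.6%), against 7.81% of all, and TATAAA in 8 (42.1%), against 13.6% of all. Such matches are descriptions of sequence and do not show binding.

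Inflammatory cytokines followed the same course. Of 12 members 10 were lower and 0 higher (median log2 -3.35). Il1b (ENSMUSG00000027398, GRCm39 chromosome 2, 129206490 to 129213059, minus strand), which encodes interleukin 1 beta, held 0.808 to 172 CPM at day 12 (median 2.52) and 1010, 695, 1150, 941 and 1540 CPM at day 2. It fell 29.9-fold (log2 -4.90, SE 1.07, edgeR, adjusted p = 0.000601), with all day 12 libraries below all day 2 libraries. Il6 held 0.0557 to 0.721 CPM at day 12 (median 0.379) and 21, 8.82, 5.93, 8.48 and 16.8 CPM at day 2 (29.6-fold lower, log2 -4.89, SE 0.72, edgeR, adjusted p = 7e-06). Il24, an interleukin 10 family cytokine of wound keratinocytes, fell 107-fold (log2 -6.75, SE 0.96, edgeR, adjusted p = 3.35e-06), and Tnf fell 13.5-fold (log2 -3.76, SE 0.69, adjusted p = 9.16e-05). The members not called were Il11, with a log2 difference of -0.81 (edgeR, adjusted p = 0.254), and Il36a, with one of 1.12 (adjusted p = 0.386).

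Monocyte and macrophage genes fell less far, and tissue macrophage genes moved in both directions. Of 14 monocyte and macrophage genes 9 were lower and 0 higher (median log2 -2.05). Cd14, the lipopolysaccharide co-receptor, fell 28.8-fold (log2 -4.85, SE 0.76, edgeR, adjusted p = 1.29e-05), and Ly6c2, of inflammatory monocytes, fell 8.19-fold (log2 -3.03, SE 0.60, adjusted p = 0.000188). Itgam, an integrin chain of myeloid cells, held 4.95 to 23 CPM at day 12 (median 11.3) and 168, 170, 119, 120 and 103 CPM at day 2 (10.8-fold lower, log2 -3.43, SE 0.51, edgeR, adjusted p = 5.66e-06).

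Among 14 genes of resident and alternatively activated macrophages, 2 were higher and 5 lower. Gpnmb (ENSMUSG00000029816, GRCm39 chromosome 6, 49013426 to 49047863, plus strand), a glycoprotein of lipid-laden macrophages and of melanosomes, held 157 to 497 CPM at day 12 (median 313) and 30.6, 35.3, 63.7, 37.5 and 56 CPM at day 2. Its day 12 libraries lay above all day 2 libraries, a 7.10-fold rise (log2 2.83, SE 0.32, edgeR, adjusted p = 1.13e-07). Since pigment cells also make Gpnmb, and melanocyte genes rose in the same libraries, the part of either cell type in this rise was not tested. Apoe rose 2.11-fold (log2 1.08, SE 0.27, edgeR, adjusted p = 0.00241) with overlap. Chil3, a chitinase-like gene of activated macrophages, held 0.163 to 2.16 CPM at day 12 (median 0.57) and 171, 219, 210, 113 and 120 CPM at day 2 (175-fold lower, log2 -7.45, SE 0.80, edgeR, adjusted p = 6.06e-08). Arg1, the arginase of wound macrophages, fell 13.5-fold (log2 -3.76, SE 0.70, adjusted p = 0.000103). Cd163, Mrc1 and Lyve1, surface receptors of perivascular and resident macrophages, fell 9.74-fold, 5.58-fold and 9.33-fold (edgeR, adjusted p = 0.00566, 0.0143 and 0.0104), with overlap between the days, and Lyve1 was lost without day 2 replicate 2 (adjusted p = 0.074). The complement genes C1qa, C1qb and C1qc were not called (log2 -0.02, -0.30 and -0.05).

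Few T cell, mast cell or dendritic cell genes were called. Of 12 T cell and cytotoxic genes only Cd4 was called, 3.75-fold higher (log2 1.91, SE 0.47, edgeR, adjusted p = 0.00189), at 3.65 to 8.6 CPM at day 12 and 1.8, 1.79, 2.17, 0.519 and 0.81 CPM at day 2. Cd3e was not called (log2 0.21, SE 0.54, adjusted p = 0.793). Of 10 dendritic cell and MHC class II genes 0 were called by edgeR, and H2-Aa held 108 to 363 CPM at day 12 and 85.1 to 201 CPM at day 2. Of 9 B and plasma cell genes Ms4a1 and Iglc1 were too low to test, and of the other 7 Igkc, Jchain and Ighm were higher, and without day 2 replicates 4 and 5 none of the 3 was called (edgeR, adjusted p = 0.0883, 0.061 and 0.0527). The mast cell list had 1 call of 9, Kit, which melanocytes also express, 2.42-fold higher (log2 1.28, SE 0.39, edgeR, adjusted p = 0.0096), and it too was lost without those libraries (adjusted p = 0.106). In the list of epidermal gamma-delta T cells and Skint genes, Skint7 rose 5.39-fold (log2 2.43, SE 0.50, edgeR, adjusted p = 0.000325) to a median of 4.52 CPM, against 65 CPM in unwounded skin (mean, n = 3). Cd207, of Langerhans cells, fell 2.08-fold (adjusted p = 0.0282), a call lost without day 12 replicate 3 or 4 or day 2 replicate 1 or 2 (adjusted p from 0.0559 to 0.106).

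In the epidermis, genes of wound-edge keratinocytes and of attachment to the basement membrane fell, and a few genes of the granular layer rose. Of 14 wound keratinocyte genes 9 were lower and 0 higher (median log2 -2.54). Slpi, an antiprotease of the wound epidermis and of neutrophils, held 1.2 to 31.6 CPM at day 12 (median 3.51) and 174, 159, 168, 258 and 363 CPM at day 2, without overlap (29.2-fold lower, log2 -4.87, SE 0.76, edgeR, adjusted p = 1.14e-05). The protease inhibitor gene Stfa1 fell 20.6-fold (log2 -4.36, SE 0.79, edgeR, adjusted p = 7.14e-05), and the growth factor gene Areg, a ligand of the epidermal growth factor receptor, fell 10.2-fold (log2 -3.34, SE 0.42, adjusted p = 6.15e-07). Reads shared within the Stfa and Krt6 families leave single members uncertain. Krt6b, a keratin of activated epidermis, held 1.42 to 395 CPM at day 12 (median 8.9) and 1630, 3180, 619, 122 and 161 CPM at day 2 (log2 -3.97, SE 1.41, edgeR, adjusted p = 0.0258). Its groups overlapped through day 12 replicate 2, and the call was lost without day 12 replicate 4, 5 or 6 or day 2 replicate 2 (adjusted p from 0.0513 to 0.0854). Krt17 was not called (log2 0.54, SE 0.45, adjusted p = 0.372).

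Of 12 basal keratinocyte genes 8 were lower and 0 higher (median log2 -0.97). Itga6, an integrin chain that anchors basal keratinocytes to the basement membrane, held 48 to 91.6 CPM at day 12 (median 69) and 320, 266, 192, 181 and 192 CPM at day 2. It fell 3.37-fold (log2 -1.75, SE 0.26, edgeR, adjusted p = 4.8e-06), with no overlap. Lamb3, a laminin chain of the same membrane, fell 2.63-fold (log2 -1.39, SE 0.29, edgeR, adjusted p = 0.000288). Trp63, the transcription factor of basal cells, was not called and differed little (log2 -0.04, SE 0.22, adjusted p = 0.906), at 116 to 144 CPM at day 12 and 107 to 154 CPM at day 2.

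Of 15 genes of differentiated keratinocytes 4 were higher and 0 lower (median log2 1.24), a share of calls not far above the 18.6% of all genes. Flg, whose product bundles keratin in the granular layer, held 42 to 669 CPM at day 12 (median 135) and 13.3, 33.9, 6.07, 2.5 and 1.04 CPM at day 2 (19.1-fold higher, log2 4.25, SE 1.04, edgeR, adjusted p = 0.00171). Casp14, a caspase of cornification, rose 8.04-fold (log2 3.01, SE 0.53, adjusted p = 5.61e-05), Krt2 75.4-fold (log2 6.24, SE 0.87, adjusted p = 2.72e-06) and Lor, which encodes the main protein of the cornified envelope, 7.68-fold (log2 2.94, SE 1.02, adjusted p = 0.0229). Lor was not called without day 12 replicate 2 or day 2 replicate 3, 4 or 5, taken singly (edgeR, adjusted p from 0.0538 to 0.0763). Krt10, the keratin of suprabasal cells, was not called (log2 1.39, SE 0.84, adjusted p = 0.201). Day 12 replicate 2 was the highest of its group for this list, 13300 CPM in sum, where the other day 12 libraries held 749 to 5000 CPM and the day 2 libraries 1080 to 3500 CPM.

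The hair keratin and sheath lists had the highest medians of the 41 lists. All 10 inner root sheath genes, all 15 hair shaft genes and all 15 keratin-associated protein genes were higher at day 12, where 18.6% of all genes were. Of them 2, 1 and 11 had 0 counts in all day 2 libraries. Those genes were tested only because other groups held them, and they could not be called lower. Members near 0 counts at day 2 share this limit, so these counts are no independent support beside the 18.6%. The medians of fitted log2 differences were 12.22, 9.72 and 12.83, and with genes at 0 counts on day 2 set to 3 counts over the group they were 11.52, 9.72 and 12.03. Krt25 (ENSMUSG00000035831, GRCm39 chromosome 11, 99206342 to 99213777, minus strand), whose keratin fills inner root sheath cells, held 144 to 2670 CPM at day 12 (median 786) and 1 count in all 5 day 2 libraries together. The ratio was 224000, with an exact 95% interval of 40200 to 8860000 that covers counting error only. Krt73, of the same sheath, held 114 to 729 CPM at day 12 (median 310) and 0 counts at day 2, so it was at least 21400-fold higher (edgeR, adjusted p = 7.84e-05). Tchh, which encodes the sheath protein trichohyalin, held 31.2 to 3070 CPM at day 12 (median 461) and 2.42, 2.67, 2.71, 3.2 and 4.7 CPM at day 2 (334-fold higher, log2 8.38, SE 1.60, edgeR, adjusted p = 0.000135). Gata3, a transcription factor of the inner root sheath that the epidermis also expresses, rose least, 1.91-fold (log2 0.94, SE 0.21, adjusted p = 0.000728).

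Krt35 (ENSMUSG00000048013, GRCm39 chromosome 11, 99983019 to 99987067, minus strand), whose keratin appears early in the hair cortex and cuticle, held 80.8 to 1360 CPM at day 12 (median 784) and 0.0222, 0, 0.0542, 0.214 and 0.0648 CPM at day 2. The groups were far apart (9580-fold, log2 13.23, SE 1.97, edgeR, adjusted p = 6.32e-06). Krt33a had 2.32 to 1000 CPM at day 12 (median 208) and 0 counts at day 2, at least 19900-fold higher (edgeR, adjusted p = 0.000148). Krt34, another cortex keratin, had 0.299 to 515 CPM at day 12 (median 104) and 3 counts at day 2, a ratio of 9960 with an exact 95% interval of 3410 to 48300. Krtap7-1 and Krtap8-1, matrix proteins between the keratin filaments, had 1.19 to 1300 CPM and 1.69 to 1020 CPM at day 12 and 0 counts at day 2, at least 25300-fold and 21100-fold higher (edgeR, adjusted p = 0.000238 and 0.00111). Reads shared among Krtap genes leave single members uncertain. Replicate 5 was the lowest day 12 library for Krt33a, Krt34, Krtap7-1 and Krtap8-1, and replicate 1 for Krt35. Each of these lay above every day 2 library. Lack of overlap was a condition in choosing the genes with the largest rises and falls, so for genes chosen that way it is no separate result.

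The regulators of the hair matrix and dermal papilla rose less. Of 18 members 16 were higher and 0 lower (median log2 3.47). Shh (ENSMUSG00000002633, GRCm39 chromosome 5, 28661813 to 28672254, minus strand), the hedgehog ligand of the matrix, held 5.32 to 29.9 CPM at day 12 (median 22.1) and 2.8, 3.03, 2.09, 1.59 and 1.23 CPM at day 2, without overlap. It rose 9.50-fold (log2 3.25, SE 0.49, edgeR, adjusted p = 7.88e-06). Ptch1 and Gli1, the receptor and a target gene of the hedgehog pathway, rose 3.55-fold and 11.9-fold (edgeR, adjusted p = 3.56e-07 and 4.05e-08). Wnt10b, a Wnt ligand of growing follicles, held 13.2 to 71.7 CPM at day 12 (median 49.1) and 0.998, 0.911, 0.867, 2.35 and 2.04 CPM at day 2 (32.9-fold higher, log2 5.04, SE 0.48, edgeR, adjusted p = 1.53e-08). Lef1, the factor that carries Wnt signals to hair genes, rose 43.5-fold (log2 5.44, SE 0.84, adjusted p = 9.18e-06). Dlx3, a homeobox factor of the shaft and sheath, rose 104-fold (log2 6.70, SE 0.87, adjusted p = 9.54e-07), and Corin, a protease of the dermal papilla, 50.3-fold (log2 5.65, SE 1.05, adjusted p = 0.000101). The 2 members not called were Wnt10a (log2 -0.24, SE 0.24, adjusted p = 0.459) and Fgf5, the signal that ends hair growth (log2 1.06, adjusted p = 0.185).

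The promoters of Krt34 and Tchh are shown because each holds 2 matches to CTTTGAA, a motif of the TCF and LEF factors that include Lef1, and that of Krt25 because it holds TATAAA at the usual distance from the start. They are RefSeq sequences of GRCm38.p6 over the same window: Krt34 at chr11:100041505-100041804, minus strand, Tchh at chr3:93442080-93442379, plus strand, and Krt25 at chr11:99322902-99323201, minus strand. Capitals mark the matches on either strand, which begin 240 and 133 bases before the start in Krt34, 159 and 144 bases before it in Tchh, and 30 bases before it in Krt25.
Krt34: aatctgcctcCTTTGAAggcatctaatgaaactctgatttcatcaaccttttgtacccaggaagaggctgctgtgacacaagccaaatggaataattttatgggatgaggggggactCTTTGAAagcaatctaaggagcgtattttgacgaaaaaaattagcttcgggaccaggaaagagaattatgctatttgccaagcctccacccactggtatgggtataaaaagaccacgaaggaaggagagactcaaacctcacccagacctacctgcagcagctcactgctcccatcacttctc
Tchh: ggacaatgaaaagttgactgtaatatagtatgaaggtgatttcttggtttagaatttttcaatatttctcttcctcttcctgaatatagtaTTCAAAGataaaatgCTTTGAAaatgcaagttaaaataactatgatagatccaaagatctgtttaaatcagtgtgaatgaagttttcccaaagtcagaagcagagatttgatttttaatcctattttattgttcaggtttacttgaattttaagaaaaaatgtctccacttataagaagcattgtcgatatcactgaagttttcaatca
Krt25: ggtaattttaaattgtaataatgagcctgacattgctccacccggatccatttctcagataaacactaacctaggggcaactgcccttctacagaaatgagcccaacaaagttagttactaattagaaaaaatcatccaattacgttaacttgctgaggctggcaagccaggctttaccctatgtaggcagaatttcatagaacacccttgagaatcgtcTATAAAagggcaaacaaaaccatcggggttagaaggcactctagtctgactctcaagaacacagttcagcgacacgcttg
Of 40 sheath, shaft and keratin-associated protein genes 34 had promoters in the table, 37 in all. CTTTGAA was in 10 of them (27%), against 5.14% of all promoters, and TATAAA in 26 (70.3%), against 13.6%. The variant CTTTGAT was in 2 (5.41%), against 3.73%, the AP-1 motif in 3 (8.11%), against 7.81%, and the NF-kB motif in 0, against 1.47%. TATAAA was thus above its share of all promoters in the chemokine and cytokine set as well.

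Follicle stem cell genes moved less far than the growth genes (median log2 0.48). Of 12 members 4 were higher, namely Lhx2, Tbx1, Lgr5 and Tcf7l1, and 2 lower, Fgf18 and Nfatc1. The share higher was above the 18.6% of all genes, and the share lower was near their 18.7%. Lgr5, a Wnt pathway receptor of the lower follicle, held 14.9 to 57.4 CPM at day 12 (median 27.6) and 12, 8.27, 14, 10.4 and 10.9 CPM at day 2 (2.66-fold higher, log2 1.41, SE 0.43, edgeR, adjusted p = 0.0104). Tcf7l1, a Wnt pathway factor of stem cells, was not called without day 2 replicates 4 and 5 (edgeR, adjusted p = 0.0612). Lhx2, a factor of follicle progenitors, rose 3.43-fold (log2 1.78, SE 0.35, adjusted p = 0.000166). Fgf18, a signal of resting follicles, was 2.97-fold lower (log2 -1.57, SE 0.55, edgeR, adjusted p = 0.0239) and Nfatc1 1.56-fold lower (log2 -0.64, SE 0.23, adjusted p = 0.0257). Both calls were lost without day 12 replicate 4 or 6 or day 2 replicate 4 or 5, taken singly (edgeR, adjusted p from 0.0531 to 0.0871). Without day 2 replicates 4 and 5 together, Fgf18 was at log2 -0.70 and Nfatc1 at -0.49 (edgeR, adjusted p = 0.385 and 0.154). Cd34 and Sox9 were not called (log2 0.35 and 0.24).

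Pigment genes rose with the hair genes. Of 10 melanocyte genes 8 were higher and 0 lower (median log2 7.99), where 18.6% of all genes were higher. Oca2 had 0 counts in all day 2 libraries and could not be called lower, and members near 0 counts at day 2 share this limit. The count of calls is thus no independent support beside the 18.6%. Tyr (ENSMUSG00000004651, GRCm39 chromosome 7, 87073979 to 87142720, minus strand), the tyrosinase that starts melanin synthesis, held 1.3 to 78.6 CPM at day 12 (median 46.9) and 0.111, 0.0651, 0, 0 and 0 CPM at day 2. It rose 969-fold (log2 9.92, SE 1.31, edgeR, adjusted p = 1.22e-06), and the lowest day 12 library was replicate 1. Pmel, which forms the fibrils of the melanosome, held 9.08 to 378 CPM at day 12 (median 223) and 0.466, 0.521, 0.759, 0.366 and 0.389 CPM at day 2 (403-fold higher, log2 8.65, SE 1.02, edgeR, adjusted p = 2.36e-07). Oca2 had 0.118 to 27.2 CPM at day 12 and 0 counts at day 2, at least 867-fold higher (edgeR, adjusted p = 0.000106). The lineage factors Mitf and Sox10, which other skin cells also express, were not called (log2 0.20, SE 0.17, edgeR, adjusted p = 0.358, and log2 0.63, SE 0.33, adjusted p = 0.138).

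**Figure D3:**
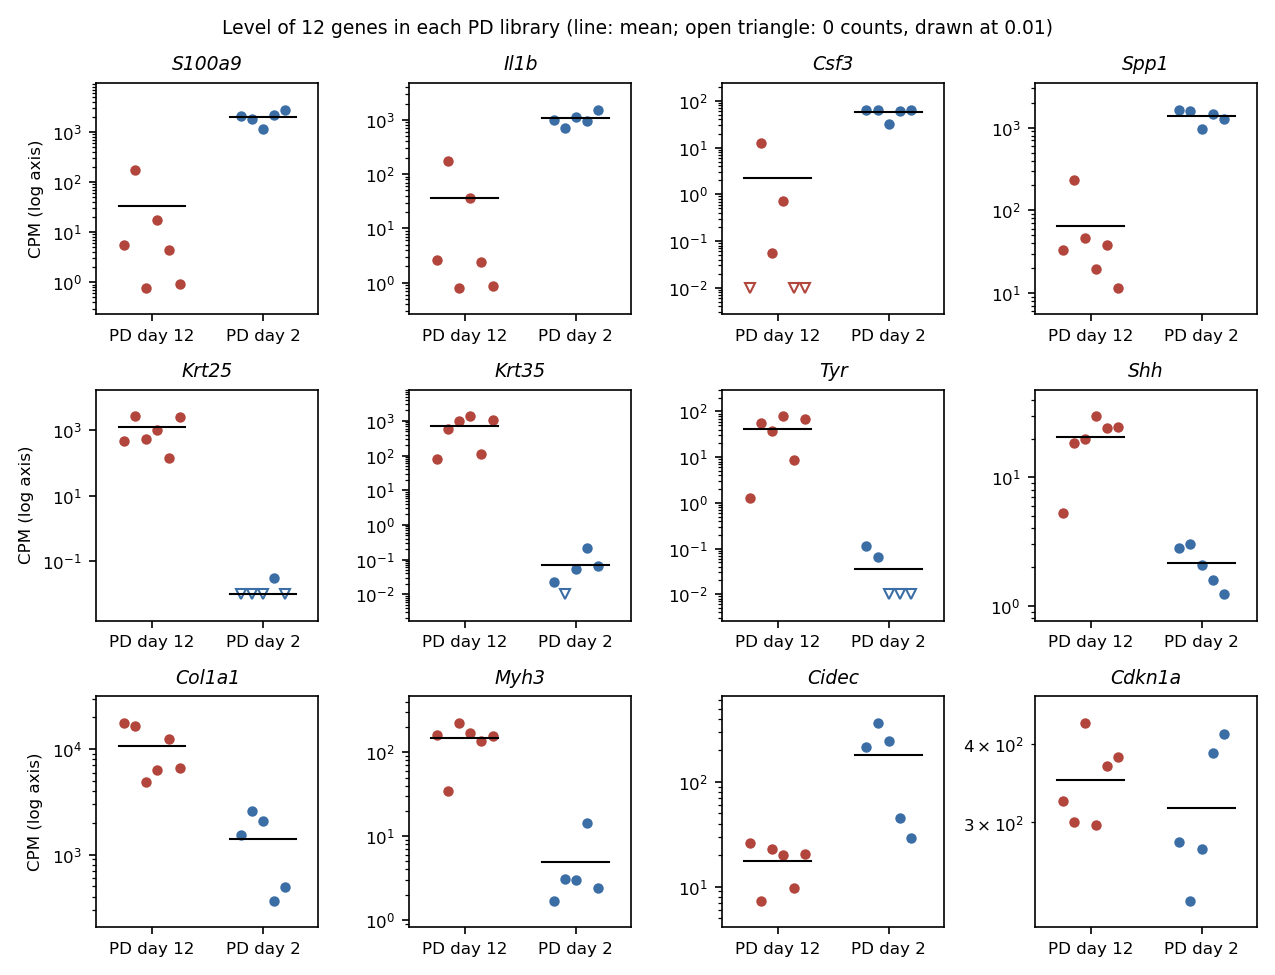
CPM of 12 genes (log axes) in each PD library, day 12 in red on the left and day 2 in blue on the right, with a line at the mean and open triangles for libraries with 0 counts. S100a9, Il1b, Csf3, Spp1 and Cidec lie lower at day 12 and Krt25, Krt35, Tyr, Shh, Col1a1 and Myh3 higher, each without overlap, while the levels of Cdkn1a, 225 to 433 CPM over both days together, overlap.

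Collagen genes were higher at day 12. Of 18 collagen and fibroblast matrix genes 15 were higher and 0 lower (median log2 2.09). Col1a1 (ENSMUSG00000001506, GRCm39 chromosome 11, 94827050 to 94843868, plus strand), a chain of type I collagen, held 4930 to 17800 CPM at day 12 (median 9540) and 1530, 2600, 2090, 366 and 498 CPM at day 2. It rose 7.61-fold (log2 2.93, SE 0.60, edgeR, adjusted p = 0.000309) with no overlap. Col1a2, its partner chain, rose 6.53-fold (log2 2.71, SE 0.64, edgeR, adjusted p = 0.00131), and Col11a1, a fibril-nucleating collagen, 11.3-fold (log2 3.5, SE 0.56, adjusted p = 1.38e-05). Day 2 replicates 4 and 5 were the lowest for type I collagen. Without them 7 of the 18 genes were called higher.

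Collagen processing enzymes were mostly not called. Of 14 members P4ha3, Loxl2 and Bmp1 were higher, a share near that of all genes, and 0 lower. Without day 2 replicates 4 and 5, P4ha3 was at log2 1.85 (edgeR, adjusted p = 0.0513), Loxl2 at 1.46 (adjusted p = 0.0512) and Bmp1 at 0.79 (adjusted p = 0.126), and 0 members were called higher by edgeR. Bmp1 was also lost without day 12 replicate 2 or day 2 replicate 4 (adjusted p = 0.0669 and 0.0512). Among 16 proteoglycan and matricellular genes 7 were higher and 2 lower. Cthrc1, a secreted protein of wound fibroblasts, held 60 to 190 CPM at day 12 (median 74.3) and 11.3, 13.8, 16.6, 4.49 and 4.8 CPM at day 2 (10.6-fold higher, log2 3.41, SE 0.63, edgeR, adjusted p = 9.45e-05). Aspn rose 8.87-fold (log2 3.15, SE 0.80, adjusted p = 0.00246) and Postn, which binds collagen in remodelling dermis, 4.37-fold (log2 2.13, SE 0.38, adjusted p = 6.28e-05).

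The 2 members that fell were Spp1 and Thbs1, both of which wound macrophages make. Spp1 (ENSMUSG00000029304, GRCm39 chromosome 5, 104582165 to 104589235, plus strand), the osteopontin gene, held 11.6 to 236 CPM at day 12 (median 35.8) and 1650, 1600, 969, 1470 and 1260 CPM at day 2. It fell 21.6-fold (log2 -4.43, SE 0.86, edgeR, adjusted p = 0.000168), the highest day 12 library being replicate 2. Thbs1, the thrombospondin gene, fell 12.1-fold (log2 -3.60, SE 0.55, adjusted p = 7.88e-06). Dcn, Vcan and Tnc were not called (log2 0.08, 0.06 and 0.05).

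Of 16 matrix proteases and inhibitors, 6 were higher and 6 lower. Plaur, the urokinase receptor gene, held 10.9 to 51.8 CPM at day 12 (median 20.9) and 350, 217, 230, 337 and 440 CPM at day 2 (12.7-fold lower, log2 -3.67, SE 0.46, edgeR, adjusted p = 5.05e-07). Mmp10 fell 10.6-fold (log2 -3.41, SE 1.09, adjusted p = 0.0144). On the other side, Mmp11, the stromelysin of remodelling stroma, held 12.6 to 138 CPM at day 12 (median 37.5) and 8.78, 11.3, 12.1, 4.91 and 4.93 CPM at day 2 (6.82-fold higher, log2 2.77, SE 0.53, edgeR, adjusted p = 0.00015), and Mmp16, a membrane protease, also rose 6.82-fold (log2 2.77, SE 0.44, adjusted p = 1.2e-05). Mmp12, the macrophage elastase, held 5.79 to 182 CPM at day 12 (median 70.8) and 23.4, 13.2, 15.3, 16 and 12 CPM at day 2 (4.94-fold higher, log2 2.31, SE 0.63, edgeR, adjusted p = 0.00447). The groups overlapped, and limma-voom gave a log2 difference of 0.51 (adjusted p = 0.466).

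In the TGF-beta and activin list, Tgfb3 and Tgfb2 were higher, by 2.72-fold and 1.80-fold (edgeR, adjusted p = 1.14e-05 and 0.00247). Tgfbi, Inhba, Skil, Tgfb1 and Tgfbr1 were lower. Inhba, which encodes the activin A subunit, held 3.66 to 15 CPM at day 12 (median 5.44) and 47.2, 24.4, 24.3, 24 and 22.1 CPM at day 2 (3.84-fold lower, log2 -1.94, SE 0.45, edgeR, adjusted p = 0.00112). Tgfb1 fell 1.77-fold (log2 -0.82, SE 0.17, adjusted p = 0.00035). The 14 members thus held 2 higher and 5 lower genes.

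Contractile genes split. Of 12 myofibroblast and smooth muscle genes, Myl9 and Tagln were higher and Myh11 and Cnn1 lower. Acta2, the actin that marks myofibroblasts, was not called (log2 0.34, SE 0.30, edgeR, adjusted p = 0.385), at 124 to 295 CPM at day 12 and 70.3 to 235 CPM at day 2. Myl9 and Tagln were no longer called without day 2 replicates 4 and 5 (edgeR, adjusted p = 0.179 and 0.197), Tagln also without day 2 replicate 4 alone (adjusted p = 0.0519) and Myh11 without day 2 replicate 1 (adjusted p = 0.0679). Cnn1, a calponin of smooth muscle, held 1.63 to 7.25 CPM at day 12 (median 3.89) and 17.8, 9.93, 10.9, 5.65 and 6.94 CPM at day 2 (2.46-fold lower, log2 -1.30, SE 0.36, edgeR, adjusted p = 0.00523).

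Skeletal muscle beneath the skin was present in all libraries, at 6530 to 94200 CPM over 16 adult muscle genes at day 12 and 19000 to 63200 CPM at day 2. Of these genes only Myh1, a fast myosin, was called (3.78-fold higher, log2 1.92, SE 0.61, edgeR, adjusted p = 0.013), and without day 12 replicate 3, the library with the most muscle transcript, it was not (log2 1.36, adjusted p = 0.0638). Of 8 muscle regeneration genes Myh3, Myh8 and Mymk were higher and 0 lower. Myh3 (ENSMUSG00000020908, GRCm39 chromosome 11, 66969126 to 66993117, plus strand), the embryonic myosin of newly formed fibres, held 34.2 to 226 CPM at day 12 (median 160) and 1.69, 3.06, 3.01, 14.4 and 2.4 CPM at day 2. It rose 30-fold (log2 4.91, SE 0.68, edgeR, adjusted p = 2.65e-06), with no overlap. Myh8, the perinatal myosin, rose 15.6-fold (log2 3.97, SE 0.57, adjusted p = 4.2e-06), and Mymk, whose product fuses myoblasts, 7.66-fold (log2 2.94, SE 0.56, adjusted p = 0.000129). The myogenic genes Myog and Pax7 were not called (log2 -0.55 and -0.08).

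Fat genes were lower at day 12. Of 14 adipocyte genes 13 were lower and 0 higher (median log2 -2.50). Cidec (ENSMUSG00000030278, GRCm39 chromosome 6, 113400691 to 113412721, minus strand), a lipid droplet protein of white fat, held 7.34 to 26.1 CPM at day 12 (median 20.3) and 214, 368, 245, 45 and 29.1 CPM at day 2. It fell 10.1-fold (log2 -3.34, SE 0.58, edgeR, adjusted p = 4.48e-05), and day 2 replicates 4 and 5 lay just above the day 12 range. The leptin gene Lep fell 9-fold (log2 -3.17, SE 0.73, adjusted p = 0.00103) and the resistin gene Retn 8.44-fold (log2 -3.08, SE 0.66, adjusted p = 0.000486), both with overlap through the same pair of day 2 libraries. Of 12 sebaceous gland genes 6 were lower and 0 higher; Plin2 and Pparg, which fell 3.34-fold and 3.27-fold (edgeR, adjusted p = 4.87e-05 and 4.05e-06), also belong to fat and macrophages, and genes of sebum synthesis such as Awat1, Awat2 and Elovl3 were not called (log2 -0.01, 0.11 and -0.35). Without day 12 replicate 6, or day 2 replicate 4 or 5, 3 of the sebaceous genes were lower.

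Vessel and nerve genes were mostly not called. Of 12 endothelial genes Flt1 and Eng were lower, a share near that of all genes. Without day 12 replicate 2 the count was 7, and without day 2 replicates 4 and 5 it was 6. Eng was not called without any single one of day 12 replicates 3 to 6 or day 2 replicates 1 to 3 (edgeR, adjusted p from 0.0526 to 0.143). Flt1, a receptor of vascular endothelial growth factor, fell 3.32-fold (log2 -1.73, SE 0.38, edgeR, adjusted p = 0.000607). Of 10 Schwann cell genes S100b was higher (3.54-fold, log2 1.83, SE 0.35, edgeR, adjusted p = 0.000125) and the myelin gene Mbp lower (2.07-fold, log2 -1.05, SE 0.29, adjusted p = 0.00488). All 5 red blood cell genes tested were lower. Hbb-bs, a beta globin gene, held 9.95 to 21.5 CPM at day 12 (median 18.8) and 79.8, 84.1, 887, 49.4 and 77 CPM at day 2 (13.3-fold lower, log2 -3.73, SE 0.74, edgeR, adjusted p = 0.000223), with reads shared between globin copies. Day 2 replicate 3, at 887 CPM, raised this fold, and the other day 2 libraries held 49.4 to 84.1 CPM.

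Immediate early, hypoxia and oxidative stress genes fell. Of 12 immediate early genes 10 were lower, and Egr3 was higher. Fosl1 (ENSMUSG00000024912, GRCm39 chromosome 19, 5497575 to 5505974, plus strand), an AP-1 subunit, held 2.03 to 5.93 CPM at day 12 (median 2.88) and 34.8, 23.1, 18.6, 40.7 and 35.9 CPM at day 2, without overlap (9.52-fold lower, log2 -3.25, SE 0.41, edgeR, adjusted p = 5.97e-07). Fos fell 6.63-fold (log2 -2.73, SE 0.42, adjusted p = 8.93e-06). Egr3 rose 2.02-fold (log2 1.02, SE 0.28, edgeR, adjusted p = 0.00495).

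Of 18 glycolysis and hypoxia genes 14 were lower and 0 higher (median log2 -1.02). Slc16a3, the lactate exporter of glycolytic cells, held 19.1 to 82.5 CPM at day 12 (median 43.2) and 300, 215, 200, 360 and 397 CPM at day 2 (6.5-fold lower, log2 -2.70, SE 0.41, edgeR, adjusted p = 8.17e-06). The glucose transporter gene Slc2a1 fell 3.23-fold (log2 -1.69, SE 0.27, adjusted p = 1.14e-05), Vegfa 2.39-fold (log2 -1.26, SE 0.25, adjusted p = 0.000226) and Eno1 2.19-fold (log2 -1.13, SE 0.11, adjusted p = 2.29e-08). Of 16 genes of mitochondrial respiration 0 were called by edgeR, with log2 differences between -0.30 and 0.17. Of 12 oxidative stress and metallothionein genes 7 were lower and 0 higher. Slc7a11, the cystine importer, fell 12.2-fold (log2 -3.61, SE 0.43, edgeR, adjusted p = 2.7e-07), Gsta4 11.1-fold (log2 -3.47, SE 0.48, adjusted p = 2.57e-06) and the heme oxygenase gene Hmox1 5.31-fold (log2 -2.41, SE 0.47, adjusted p = 0.000159).

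Of 16 interferon response genes Rsad2, Oasl1, Cxcl10 and Mx1 were lower and Cxcl9 higher, the last not called without day 2 replicates 4 and 5 (edgeR, adjusted p = 0.0525). The share of members called was below the 37.3% of all genes. Mx1 was lost without any single one of day 12 replicates 3 to 6 or day 2 replicates 3 and 4 (edgeR, adjusted p from 0.0562 to 0.0703). Rsad2, an antiviral effector, held 2.59 to 30.9 CPM at day 12 (median 7.04) and 81.3, 28.6, 153, 124 and 73.2 CPM at day 2 (6.93-fold lower, log2 -2.79, SE 0.68, edgeR, adjusted p = 0.00159). Without day 12 replicate 1, which held the highest sum of its group for this list (762 CPM), 8 members were lower, and without day 12 replicate 2 the count was 7. The 13 clock genes held 3 calls, also a share below that of all genes. Npas2 was higher (2.27-fold, log2 1.18, SE 0.45, edgeR, adjusted p = 0.0367), and Clock and Nr1d2 were lower (1.92-fold and 1.48-fold, adjusted p = 0.00136 and 0.00394). The call of Npas2 was lost without day 12 replicate 1 or 2 or day 2 replicate 1, 2 or 3 (adjusted p from 0.0611 to 0.145).

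Cdkn1a, the p21 gene (ENSMUSG00000023067; GRCm39, chromosome 17 plus strand, 29309936 to 29319701), was not called. It held 297 to 433 CPM at day 12 (median 347) and 279, 225, 272, 388 and 416 CPM at day 2, and the groups overlapped over most of their range (log2 0.15, SE 0.19, edgeR, adjusted p = 0.558). Of 13 CDK inhibitor and senescence genes Cdkn2a, Cdkn1c and Cdkn2b were higher and 0 lower (median log2 0.07). That share of calls was not far above the 18.6% of all genes. Cdkn2a, the locus of p16 and p19Arf, held 1.01 to 4.58 CPM at day 12 (median 1.72) and 0.177, 0, 0.65, 0.275 and 0.195 CPM at day 2, without overlap (7.76-fold higher, log2 2.96, SE 0.52, edgeR, adjusted p = 4.94e-05). Cdkn2b, which encodes p15, rose 2.55-fold (log2 1.35, SE 0.21, adjusted p = 7.99e-06), and Cdkn1c, which encodes p57, 5.15-fold (log2 2.36, SE 0.34, adjusted p = 4.46e-06).

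Of 18 p53 targets Bbc3 was higher (2.22-fold, log2 1.15, SE 0.24, edgeR, adjusted p = 0.000279), and Fas, Btg2 and Plk2 were lower, Btg2 not without day 2 replicates 4 and 5 (edgeR, adjusted p = 0.0888). The share of targets called was below the 37.3% of all genes. Fas, the death receptor gene, held 3.65 to 8.6 CPM at day 12 (median 5.21) and 19.5, 24.9, 28.7, 25.9 and 28.4 CPM at day 2 (4.55-fold lower, log2 -2.19, SE 0.30, edgeR, adjusted p = 1.98e-06). Of 18 proliferation genes Cenpf, Mki67, Ccnb2 and Plk1 were higher and 0 lower (median log2 0.19), a share near the 18.6% of all genes. Mki67 held 81.3 to 319 CPM at day 12 (median 194) and 84.4, 133, 123, 122 and 137 CPM at day 2 (1.63-fold higher, log2 0.70, SE 0.24, edgeR, adjusted p = 0.0194). It was not called without day 12 replicate 4 (adjusted p = 0.0847) or day 2 replicate 1 (adjusted p = 0.0656), and without either library the list held 2 calls, against 7 without day 12 replicate 1. Plk1 was lost without day 12 replicate 4 or 6 or day 2 replicate 1, 3 or 5 (edgeR, adjusted p from 0.0504 to 0.128).

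The level of each list between the days was followed through PD day 4 wounds and unwounded skin, as the mean log2 CPM of its members. Neutrophil genes averaged -1.56 in unwounded skin, 7.12 at day 2, 7.45 at day 4 and 0.88 at day 12 (SD 0.09, 0.35, 0.90 and 1.47; n = 3, 5, 6 and 6). Inner root sheath genes averaged -0.41, -1.64, -0.49 and 7.48 over the same groups (SD 0.38, 0.15, 1.05 and 1.61), so that their level was low at day 4 and high at day 12. Collagen genes averaged 6.28, 6.95, 7.44 and 9.09 (SD 0.47, 1.06, 0.84 and 0.61). Muscle regeneration genes averaged 0.66, 2.84, 4.78 and 4.39 (SD 0.43, 0.62, 0.31 and 0.68) and were thus as high at day 4 as at day 12 within their spread. These levels are a description and were not tested between the further days.

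**Figure D4:**
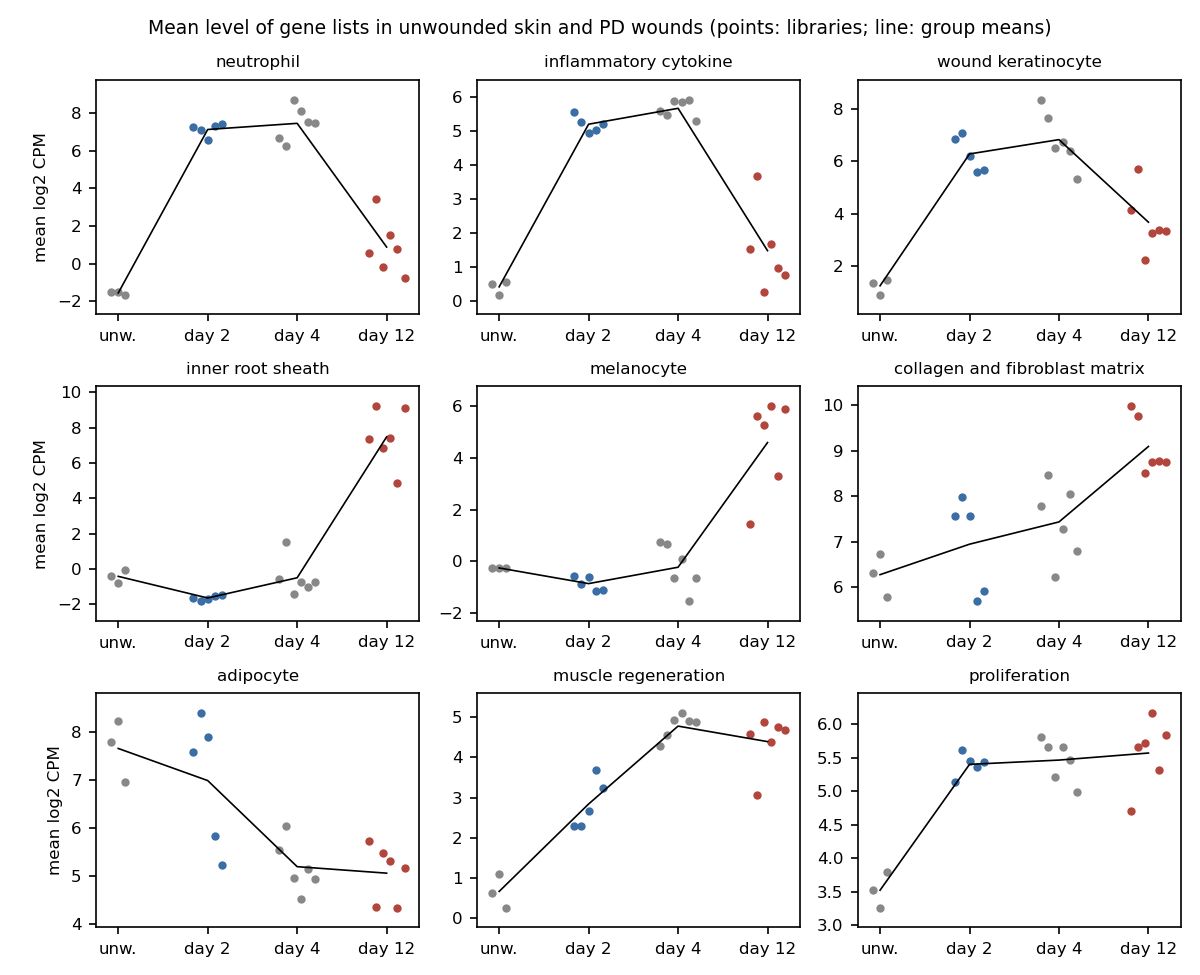
Mean log2 CPM of the members of 9 gene lists in unwounded skin (unw., 3 libraries) and PD wounds at day 2 (5, blue), day 4 (6) and day 12 (6, red), with points for libraries and a line through group means. Neutrophil genes run from -1.56 in unwounded skin over 7.12 and 7.45 to 0.88, inner root sheath genes reach 7.48 at day 12 alone, and proliferation genes lie between 5.40 and 5.57 in all wound groups.

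In P wounds 8460 genes were called between day 12 and day 2 (41%), and the arms share no library. Of the 7701 genes called in PD wounds 6190 were called in P wounds too, all 6190 in the same direction, which is 80.4% of the calls in PD wounds and 73.2% of those in P wounds. The difference between the arms in the change over time was called for 0 genes by edgeR, and 547 genes (2.65% of those tested) had an unadjusted p under 0.05. DESeq2 called 21 genes, with 724 at an unadjusted p under 0.05. Limma-voom called 0, with 3101 at an unadjusted p under 0.05, so the number of genes with a low unadjusted p depended on the tool. With no difference at all, a share of 0.05 of the 20657 genes would be expected there. The edgeR number lay below that share and the limma-voom number above it. The 0 calls thus do not show that the arms changed alike. Cnn1, Il6 and Mmp12 below were picked from many named genes, and their unadjusted p-values are no evidence of a difference between the arms. Cdkn1a had log2 differences of 0.15 in PD wounds and -0.48 in P wounds (difference 0.64, SE 0.27, edgeR, unadjusted p = 0.0232, adjusted p = 1). Cnn1 had -1.30 in PD wounds and 0.73 in P wounds (difference -2.03, SE 0.52, edgeR, unadjusted p = 0.000421, adjusted p = 1), Il6 had -4.89 in PD wounds and -2.20 in P wounds (difference -2.69, SE 0.92, unadjusted p = 0.00661, adjusted p = 1), and Mmp12 had 2.31 in PD wounds and 0.14 in P wounds (difference 2.16, SE 0.84, unadjusted p = 0.0152, adjusted p = 1).

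**Figure D5:**
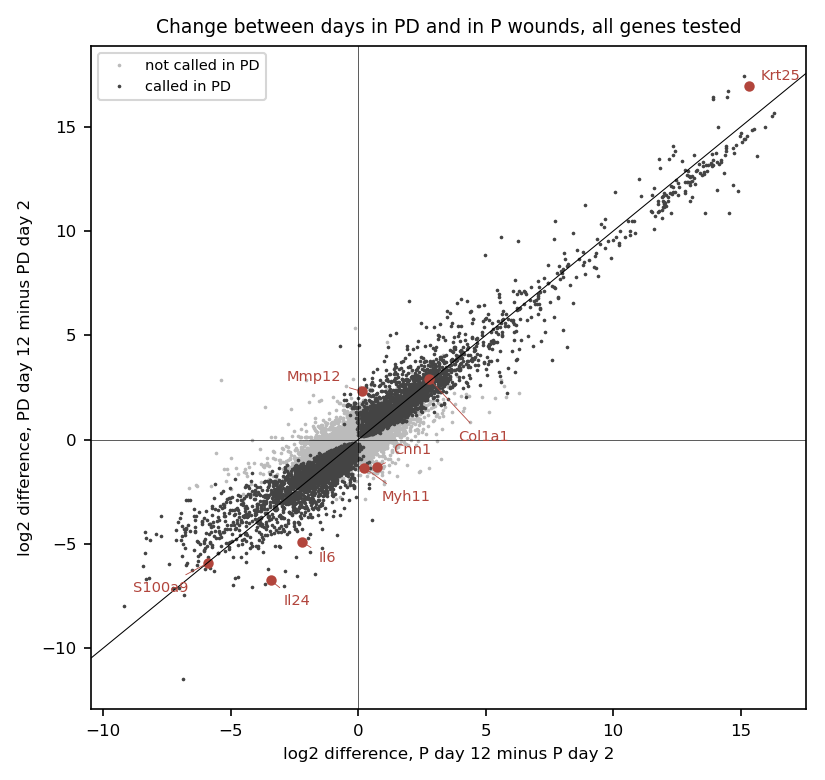
Log2 difference of each tested gene between day 12 and day 2, in PD wounds (vertical axis) and P wounds (horizontal axis), with genes called in PD wounds in black, a line of equal change, and 8 genes named. Most points lie near the line; Mmp12 (2.31 in PD, 0.14 in P), Cnn1 (-1.30 in PD, 0.73 in P), Il6 (-4.89 in PD, -2.20 in P) and Il24 lie off it, with 0 of 20657 differences between the arms called.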

How the data were processed

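Bulk RNA sequencing of mouse skin was deposited by the authors as raw read counts per gene, 1 table per library. Per the labels' protocols, polyadenylated RNA libraries were made with a stranded kit; per the submitters' processing notes, the tools were Trimmomatic, HISAT2 2.1.0, SAMtools 1.9 and HTSeq, with the GRCm39 build. The strand setting of the counting and the annotation release are not given in the sources used here, so overlapping and antisense genes are uncertain. Groups were taken from the labels.

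Counts were scaled by the trimmed mean of M-values and fitted with edgeR 4.0.16 (quasi-likelihood, robust, R 4.3.3) over all 36 libraries as 7 group means, on genes kept by filterByExpr (count at least 10, summed count at least 15). P-values were adjusted by Benjamini-Hochberg over 20657 genes, with a threshold of 0.05. Day 12 was set over day 2, and the difference between the arms was an interaction contrast. Alternatives used limma 3.58.1 (voom), DESeq2 1.42.0, other scalings and filters, and other sets of libraries. Intervals and bounds cover counting error only, and a group at 0 was set to 3 counts over the group. Replicates of a group differed by more than sampling noise (smallest chi-square per degree of freedom 44.6).

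The members and lists were chosen with earlier results of these data known. Named genes are Cdkn1a, the 15 called genes with the largest rise and the 15 with the largest fall among those with a mean of at least 10 CPM in the higher group and no overlap, and up to 3 called members of each list in each direction at a mean of at least 1 CPM, of which the text uses a subset. List members that were not called may be named with their values. Further called list members, Shh, Lcn2, Tchh, Krt34, Cxcl1 and Cxcl3 among them, were chosen after their values were seen. Promoters are RefSeq sequences and were matched by gene symbol.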

Additional observations from a re-analysis of the deposited data

Results flagged for a closer look

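Each value below is the highest or lowest of its group and lies far from the nearest other library by Dixon's criterion. Of 424 sets of values tested 54 met it, where chance gives about 1 in 20, or 21.2, if values are normally distributed. The criterion was applied to CPM without a log scale, so 54 against 21.2 does not measure an excess over chance. Sets that share a library or a list are not independent. No explanation was tested. Summed over lists, day 12 replicate 2 held 13300 CPM of differentiated keratinocyte genes (others 749 to 5000), 511 CPM of inflammatory cytokine genes (others 61.5 to 142), 664 CPM of neutrophil genes (others 41.9 to 104) and 751 CPM of neutrophil-attracting chemokine genes (others 1.76 to 39.8). Day 2 replicate 3 held 1530 CPM of red blood cell genes (others 124 to 171). In day 2 replicate 4, mitochondrial transcripts took 5.68% of counts (others 3.33 to 3.95%). In day 2 replicate 3, globin transcripts took 0.158% of counts (others 0.0114 to 0.0168%). In day 2 replicate 4, the 10 most abundant genes took 9.76% of counts (others 5.92 to 6.93%).

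Single genes highest in day 12 replicate 2 were Retnlg at 6.46 CPM, S100a9 at 172 CPM, S100a8 at 116 CPM, Cxcr2 at 11.3 CPM and Csf3 at 12.8 CPM. Others highest in that library were Cxcl5 at 16.1 CPM, Il1b at 172 CPM, Cd14 at 131 CPM, Arg1 at 34.8 CPM and Slpi at 31.6 CPM. It was also the highest for Stfa1 at 19.3 CPM, Krt6b at 395 CPM, Flg at 669 CPM, Casp14 at 340 CPM and Spp1 at 236 CPM. The remaining genes highest in it were Fosl1 at 5.93 CPM, Tnf at 42.3 CPM, Il36a at 11.5 CPM, Cxcl3 at 39.2 CPM and Cxcl1 at 6.81 CPM.

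The highest library of its group was day 12 replicate 1 for Lgr5 at 57.4 CPM, Aspn at 288 CPM, Cxcl10 at 40.3 CPM and Postn at 3060 CPM. Lowest of its group, day 12 replicate 2 had Myog at 21.7 CPM. The highest library of its group was day 12 replicate 3 for Cdkn1c at 106 CPM and Ltf at 23.1 CPM. Highest of its group, day 12 replicate 4 had Il24 at 0.731 CPM. The highest library of its group was day 12 replicate 5 for Plin2 at 244 CPM, Cdkn2a at 4.58 CPM, Awat1 at 40 CPM and Elovl3 at 144 CPM. Lowest of its group, day 12 replicate 5 had Tgfbr1 at 10.7 CPM. The highest library of its group was day 12 replicate 6 for Fgf5 at 12 CPM. Highest of its group, day 2 replicate 1 had Mmp10 at 16.3 CPM and Inhba at 47.2 CPM. The lowest library of its group was day 2 replicate 1 for Mki67 at 84.4 CPM. Highest of its group, day 2 replicate 2 had Krt10 at 778 CPM, Lyve1 at 148 CPM and Eno1 at 808 CPM. The highest library of its group was day 2 replicate 3 for Ly6c2 at 38.5 CPM and Hbb-bs at 887 CPM. Lowest of its group, day 2 replicate 3 had Csf3 at 31.8 CPM. The highest library of its group was day 2 replicate 4 for Krt25 at 0.0305 CPM, Myh3 at 14.4 CPM and Krt34 at 0.0916 CPM. For Krt25 and Krt34 these values are 1 and 3 counts with 0 counts in the other day 2 libraries, where the criterion is met by any count above 0 and shows nothing about the library. The difference between arms was not called for any gene by edgeR, so no gene is listed here for differing between groups.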

How the results depend on the processing

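The counts of called genes, 3848 higher and 3853 lower, stayed within 1.5 times under every alternative except those with fewer libraries by replicate number. With only replicates 1 and 2 the counts were 963 higher and 905 lower, and with only replicates 3 and above 1898 higher and 2357 lower; these fits hold fewer samples. Leaving out 1 of the 11 libraries at a time gave 3311 to 4007 genes higher and 3378 to 3946 lower, and leaving out 1 of 22 gave 0 to 0 genes for the difference between the arms (edgeR). DESeq2 called 21 genes for that difference, and the cause was not tested. Without the composition factor the median log2 difference of all genes was 0.11 and 59.1% of calls were higher, against 50% in the fit reported. The labels do not say that replicate numbers pair libraries, so the fit reported did not treat them as paired. Same-numbered libraries correlated in their deviations at 0.19, 0.31, 0, 0.19 and 0.23 for replicates 1 to 5, 4 of the 5 above 0.1. Libraries of different number were not set beside them, so these values cannot decide whether replicate numbers mark a shared source. On the second principal component (13.8% of the variance) day 12 replicates 1, 2 and 6 and day 2 replicates 1 to 3 lay between 11.4 and 72.2, and the other libraries between -53.7 and -31.2. With the replicate block 8173 genes were called, 4013 higher and 4160 lower. With a term for replicate numbers 1 and 2 against the rest 8635 were called, 4268 higher and 4367 lower. Chosen after seeing the data, leaving out day 2 replicates 4 and 5 gave 7213 calls, 6280 shared with the fit reported, and leaving out day 12 replicates 2 and 5 gave 6552, 6235 shared. Scd3, of lipid synthesis, was lower in the fit reported (log2 -1.42, edgeR, adjusted p = 0.0337) and turned to 1.27 with only replicates 1 and 2 and to 0.56 without day 2 replicates 4 and 5 (adjusted p = 0.312 and 0.377); the cause was not tested. Depth limits genes near 0 counts at day 2, for which only bounds or ratios with wide intervals could be given.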
